A study of Mus musculus with 12 samples.

Results

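The genes described here encode blood group carriers and related surface proteins of the red cell: Rhd, Rhag, Icam4, Cd47, Kel, Ermap, Slc14a1 and Cd36. They were chosen by name, and each was read from the probe sets annotated to that gene alone, 15 of the 45101 probe sets on the array and 8 of the 18194 genes they represent. The cells were I/11, a p53-deficient mouse line of immature erythroid progenitors that grows with erythropoietin, stem cell factor (SCF) and dexamethasone. Lentiviral pLKO vectors with a puromycin resistance gene gave 3 stable lines: sh14 and sh133, which carry different hairpins against Plcg1 (phospholipase C gamma 1), and scr, which carries a scrambled hairpin. All 3 lines share the parental cells, the vector and the culture factors, and the labels do not say whether a line is a clone or a pool. Total RNA was taken at 1, 6, 12 and 22 h and put on Affymetrix mouse genome arrays, with 1 array for each line and time, 12 in all, and what the hours are counted from is not in the labels. The series asks what Plcg1 does in differentiation steered by the erythropoietin receptor and JAK2.

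Values are deposited log2 signals, and a difference of 1 is a doubling. Array medians lay between 1.84 and 1.92, which the normalization sets, so they do not show whether an array stands apart. There is no repeat array of any line and time, so each p-value rests on what an additive model of line, time and date string leaves over, and no spread between cultures was measured. The array titles carry 2 date strings whose meaning the labels do not give. Of the sh133 arrays, those at 6 and 12 h share the first set with the whole of sh14, and those at 1 and 22 h share the second with the whole of scr, so sh14 and scr share no set and their difference rests on the modelled set term. Plcg1 itself gave log2 signals of 3.86 to 4.30 in sh14, 4.35 to 4.53 in sh133 and 4.31 to 4.74 in scr, and the combined difference of the hairpin lines from scr was -0.24 (limma adjusted p = 0.592), which did not pass the test.

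Blood group antigens are carried by membrane proteins of the red cell that also do other work. Rhd and Rhag encode related proteins that sit together in the membrane, where the Rh-associated glycoprotein Rhag is needed for the complex to reach the surface and conducts ammonia, and where Icam4, Cd47 and the anion exchanger Slc4a1 are neighbours tied to the ankyrin skeleton. Kel, Ermap and Slc14a1 carry the Kell, Scianna and Kidd antigens in humans, and Cd36 is a scavenger receptor found on early erythroid cells and lost from mature ones. Many of these genes are switched on during erythroid maturation under the factors Gata1 and Klf1.

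Signal of 5 of the 7 testable members was higher at 22 h than at 1 h, and none was lower. Rhd gained most, to 3.91-fold over the lines, followed by Kel at 2.09-fold, Icam4 at 1.5-fold, Slc14a1 at 1.46-fold and Ermap at 1.43-fold. Rhag, and Cd47 in its brightest probe set, were bright at every time and did not pass the test. Over all 12673 genes tested, 18.1% passed between 22 h and 1 h, in either direction, and the median difference was 0.02, against 0.55 over the 7 members. By 12 h Rhd and Slc14a1 had passed against 1 h, where 7.06% of all genes did. At 6 h 0 of 7 members passed by limma, where 4.86% of all genes did, although Rhd and Slc14a1 had unadjusted p-values of 0.00458 and 0.00581. Cd36 lay below the filter on dim genes (a log2 mean of 1.45 over the 12 arrays) in all 3 of its probe sets and was not tested with the others. In this bulk RNA, fewer cells of a type and less RNA per cell cannot be told apart.

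**Figure D1:**
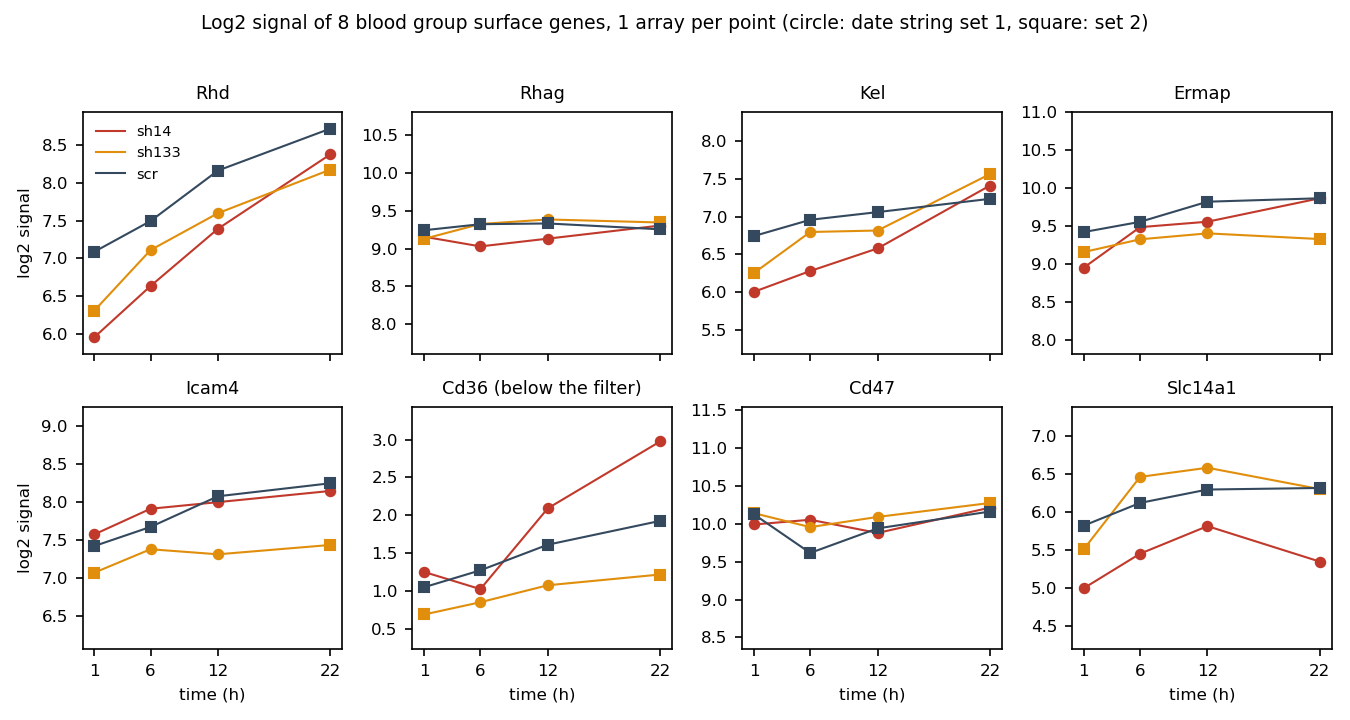
Log2 signal of the brightest probe set of each of the 8 genes (vertical axes of equal span, each centred on its own gene) against time in hours. There is 1 array per point, and lines join the arrays of sh14, sh133 and scr. Circles and squares mark the 2 date string sets. Rhd climbed at every step in all 3 lines, with scr on top throughout, while Rhag and Cd47 stayed within narrow bands.

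Fewer members passed between the hairpin lines and scr than between 22 h and 1 h. For both hairpin lines combined, Rhd was at 55.9% of the scr signal and was the only member past the threshold, where 2.18% of all genes passed. In sh14 alone Slc14a1 passed, at 48.1% of scr, against a background of 3.06%. In sh133 alone Rhd and Icam4 passed, at 62.5% and 67.4% of scr, against a background of 4.91%. Between the hairpin lines themselves Icam4 was higher and Slc14a1 lower in sh14, against a background of 14.6%. The median difference of the 7 members was -0.31 for both hairpin lines against scr, -0.29 for sh14 and -0.16 for sh133, beside medians over all tested genes of 0.01, 0.02 and 0.01. The test of whether the time course of the hairpin lines had another slope than that of scr passed for 0 of 7 members by limma, with Kel alone under an unadjusted p of 0.05, and for 0.0316% of all genes. All of these comparisons against scr use the same 4 scr arrays.

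**Figure D2:**
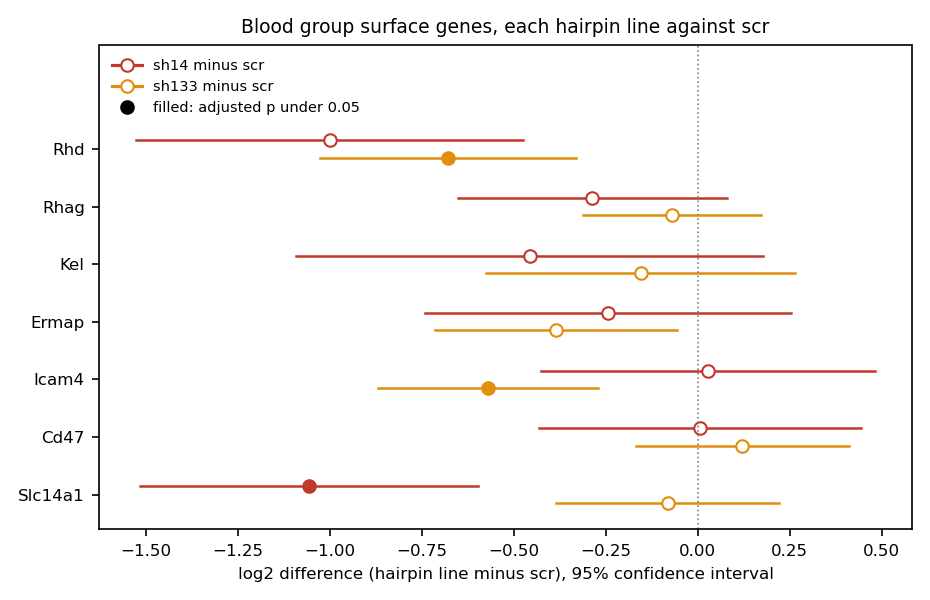
Log2 difference of sh14 and of sh133 from scr (horizontal axis) for the 7 tested genes, with 95% confidence intervals from limma; filled points have an adjusted p under 0.05. Rhd lay below 0 with both hairpins, Slc14a1 with sh14 and Icam4 with sh133, while the intervals of Rhag, Kel and Cd47 include 0.

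Rhd, which encodes the Rh protein of the complex, showed the steepest course. In sh14 its log2 signal was 5.96, 6.64, 7.39 and 8.37 at 1, 6, 12 and 22 h. The sh133 arrays gave 6.31, 7.11, 7.60 and 8.17, and the scr arrays 7.09, 7.49, 8.16 and 8.72. Every line climbed at each step, so that 22 h exceeded 1 h 5.34-fold in sh14, 3.64-fold in sh133 and 3.09-fold in scr. The fitted difference between 22 h and 1 h was 1.97 ± 0.14 (SE, limma adjusted p = 1.91e-05), and that between 12 h and 1 h was 1.19 ± 0.15 (limma adjusted p = 0.00226). At every time scr was highest, and the sh14 array at 6 h was still below the scr array at 1 h. The gap to scr was -1.13, -0.86, -0.77 and -0.34 in sh14 and -0.78, -0.38, -0.56 and -0.54 in sh133. A narrowing of the gap with time was not called: the slope of the hairpin lines exceeded that of scr by 0.10 ± 0.05 log2 per doubling of hours (limma adjusted p = 0.415).

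For both hairpin lines against scr, Rhd differed by -0.84 ± 0.18 (SE, limma adjusted p = 0.0487), close to the threshold. For sh133 the difference was -0.68 ± 0.16 (limma adjusted p = 0.0361), and for sh14 it was -1.0 ± 0.24 (limma adjusted p = 0.0526), which missed. Without the date string term the sh14 difference was -0.77 with an adjusted p of 0.000709, and with the term it also passed under a stricter filter (adjusted p = 0.0455) or robust variances (0.0313). Within the second date string set alone, which holds sh133 and scr at 1 and 22 h, the sh133 difference was -0.66 (limma adjusted p = 0.0752). The combined call and the sh133 call held when the scr array at 22 h, the sh14 array at 22 h or the sh14 array at 1 h was left out, and each was lost when any of the other 9 arrays was. The direction stayed negative in all 12 of those fits, with combined differences of -1.02 to -0.70. The hairpin lines differed from each other by -0.32 ± 0.16 in sh14 minus sh133 (limma adjusted p = 0.219).

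Rhag, the partner that carries the Rh complex to the surface and conducts ammonia, was nearly level. It read 9.16, 9.03, 9.13 and 9.30 at 1, 6, 12 and 22 h in sh14, 9.13, 9.33, 9.39 and 9.34 in sh133, and 9.24, 9.32, 9.33 and 9.26 in scr. The whole spread of the 12 arrays is thus smaller than the gain of Rhd within any line. Between 22 h and 1 h Rhag differed by 0.13 (95% confidence interval -0.09 to 0.34, limma adjusted p = 0.409). Against scr the interval was -0.46 to 0.11 for both hairpin lines together, and a lower signal in sh14 at 6 and 12 h (by -0.29 and -0.20) did not pass as a line difference (-0.29 ± 0.16, limma adjusted p = 0.433). The sh133 difference of -0.07 turned to 0.01 without the date string term.

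Icam4, an adhesion molecule that carries the LW antigen and binds integrins, set the hairpin lines apart. In sh14 it read 7.57, 7.91, 8.00 and 8.15 over the 4 times. The sh133 values were 7.07, 7.38, 7.31 and 7.43, and the scr values 7.42, 7.67, 8.08 and 8.25. The sh133 arrays were lowest at each time, by -0.35, -0.29, -0.77 and -0.81 from scr, whereas sh14 was above scr at 1 and 6 h and below it at 12 and 22 h. The sh133 difference from scr was -0.57 ± 0.13 (SE, limma adjusted p = 0.0413), a signal of 67.4% of scr, and -0.58 within the second date string set alone, where it no longer passed (limma adjusted p = 0.139). That call held without scr at 6 or 1 h or sh14 at 22 or 1 h, and was lost without any of the other 8 arrays. In sh14 the difference from scr was 0.03 ± 0.20 (limma adjusted p = 0.968). Icam4 was 1.51-fold higher in sh14 than in sh133 (0.60 ± 0.13, limma adjusted p = 0.015), and 0.61 within the first date string set alone (limma adjusted p = 0.0144). This call was lost when the 6 or 12 h array of sh14 or of sh133 was left out. With time Icam4 gained 0.59 ± 0.12 by 22 h (limma adjusted p = 0.00695), to 1.49-fold in sh14, 1.29-fold in sh133 and 1.78-fold in scr.

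Cd47, the surface protein that macrophages read through Sirpa as a signal not to engulf a cell, is also bound in the Rh complex. Its brightest probe set read 9.99, 10.05, 9.88 and 10.21 in sh14, 10.14, 9.96, 10.09 and 10.28 in sh133, and 10.12, 9.62, 9.94 and 10.16 in scr. The lines overlap, and the lowest value is that of scr at 6 h. Between 22 h and 1 h the difference was 0.13 ± 0.11 (limma adjusted p = 0.473), and for both hairpin lines against scr it was 0.06 ± 0.15 (limma adjusted p = 0.903). The 4 dimmer probe sets gave larger differences with time, 0.41 to 0.54, of which 3 had an adjusted p under 0.05 when they stood for the gene, at 0.0103, 0.00722 and 0.0365. Probe sets of Cd47 therefore disagreed on whether it changed with time, and all 5 differences were positive. In sh133 probe sets 1419554_at and 1428187_at were above scr at 4 of 4 times, by 0.33 to 0.61 and by 0.29 to 0.50, without passing as line differences (limma adjusted p = 0.0945 and 0.179). For the dim probe set 1430997_at the same fitted difference was 0.50 (limma adjusted p = 0.048), although it was above scr at 2 of 4 times.

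Kel encodes the Kell metallopeptidase, which in the red cell is joined to the Xk protein. Its log2 signal was 6.01, 6.28, 6.58 and 7.41 at 1, 6, 12 and 22 h in sh14, and 6.25, 6.80, 6.82 and 7.56 in sh133. The scr line gave 6.74, 6.96, 7.06 and 7.23. The hairpin lines thus lay below scr at 1, 6 and 12 h and above it at 22 h, by 0.18 in sh14 and 0.33 in sh133. The largest step of the hairpin lines was the last, 0.83 in sh14 and 0.75 in sh133 between 12 and 22 h, against 0.18 in scr. Over the whole span Kel gained 2.65-fold in sh14, 2.47-fold in sh133 and 1.41-fold in scr. The steeper slope of the hairpin lines was 0.16 ± 0.06 log2 per doubling of hours (unadjusted p = 0.0174), and with limma's adjustment over all genes it did not pass (adjusted p = 0.217). The gain over all lines passed, at 1.07 ± 0.16 (limma adjusted p = 0.00174). As a line average Kel did not differ from scr past the threshold (-0.31 ± 0.22 for both hairpin lines, limma adjusted p = 0.6). Without the date string term, or without the scr array at 22 h, the sh14 difference of -0.46 passed, at -0.43 (limma adjusted p = 0.04) and -0.85 (limma adjusted p = 0.0442). Without that scr array sh14 also differed from sh133, by -0.40 (limma adjusted p = 0.0358), against -0.30 (0.347) with all arrays. The transcript of its partner Xk read 3.16 to 3.76 in sh14, 3.21 to 3.57 in sh133 and 3.21 to 3.89 in scr, and did not pass between 22 h and 1 h (-0.24 ± 0.17, limma adjusted p = 0.351).

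Ermap, a butyrophilin-like erythroid protein that carries the Scianna antigens, read 8.95, 9.48, 9.56 and 9.87 in sh14, 9.16, 9.32, 9.40 and 9.33 in sh133, and 9.42, 9.55, 9.82 and 9.87 in scr. From the lowest start sh14 reached the scr level at 22 h, while sh133 stayed below scr at all 4 times. The gain between 22 h and 1 h was 1.89-fold in sh14, 1.13-fold in sh133 and 1.36-fold in scr, and over the lines it was 0.51 ± 0.13 (limma adjusted p = 0.0214). That call was lost without the scr array at 22 h or without sh14 at 22 or 1 h, with differences of 0.52, 0.38 and 0.35. The sh133 difference from scr was -0.38 ± 0.15 (limma adjusted p = 0.202), and without the date string term it was -0.36 (limma adjusted p = 0.0472). In sh14 it was -0.24 ± 0.22 (limma adjusted p = 0.663).

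Slc14a1 encodes the urea transporter that carries the Kidd antigens in humans. Probe set 1428114_at, the brighter of its pair, read 4.99, 5.45, 5.81 and 5.34 at 1, 6, 12 and 22 h in sh14. The sh133 values were 5.51, 6.46, 6.58 and 6.30, and the scr values 5.82, 6.12, 6.30 and 6.32. All sh14 arrays were below the scr array of their time, by -0.83, -0.67, -0.48 and -0.97, and sh133 lay above scr at 6 and 12 h. In both hairpin lines the peak was at 12 h, and in scr the 12 and 22 h values were alike. The sh14 difference from scr was -1.06 ± 0.21 (SE, limma adjusted p = 0.0253), and sh14 was lower than sh133 by -0.97 ± 0.14 (limma adjusted p = 0.00146), or -0.89 within the first date string set alone (limma adjusted p = 0.00703). Against scr the sh14 call was lost without scr at 22 or 1 h, sh133 at 12, 6 or 1 h, or sh14 at 6 h, with differences of -1.13 to -0.87. For sh133 the difference from scr was -0.08 ± 0.14 (limma adjusted p = 0.831), which turned to 0.08 without the date string term. Slc14a1 gained 0.68 ± 0.13 by 12 h (limma adjusted p = 0.0141) and 0.55 ± 0.12 by 22 h (limma adjusted p = 0.0109). The 12 h call was lost without scr or sh14 at 12 h (adjusted p = 0.054 and 0.111), and the 22 h call without sh133 at 22 or 1 h (adjusted p = 0.0922 for each).

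The second Slc14a1 probe set, 1448640_at, did not show the low sh14 values. It read 4.05, 3.96, 4.40 and 3.94 in sh14, 3.66, 4.43, 4.30 and 4.21 in sh133, and 3.79, 4.47, 4.31 and 4.24 in scr. Here sh14 was above scr at 1 and 12 h and below it at 6 and 22 h. When this probe set stood for the gene, sh14 differed from scr by -0.27 (limma adjusted p = 0.691) and from sh133 by -0.14 (limma adjusted p = 0.671), and the differences with time were 0.45 at 12 h and 0.30 at 22 h, neither past the threshold. The calls for Slc14a1 are therefore those of a single probe set.

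Cd36, the fatty acid and thrombospondin receptor, was dim throughout. Its brightest probe set, 1450883_a_at, had a mean of 1.42, just under the filter, with 1.25, 1.02, 2.09 and 2.98 in sh14, 0.69, 0.85, 1.08 and 1.22 in sh133, and 1.05, 1.27, 1.61 and 1.93 in scr. Only sh14 at 12 and 22 h and scr at 22 h exceeded the highest array median of 1.92, and sh133 was lowest at every time. Tested with no filter, over 18194 genes, Cd36 was higher at 22 h than at 1 h by 1.04 ± 0.22 (limma adjusted p = 0.0101). In the same fit sh14 differed from scr by 0.06 (limma adjusted p = 0.973), sh133 from scr by -0.66 (limma adjusted p = 0.246) and sh14 from sh133 by 0.72 (limma adjusted p = 0.112). Probe set 1423166_at had its highest value in the same array, sh14 at 22 h, at 2.01, and 1450884_at read 0.47 to 0.68 in sh14, 0.66 to 1.00 in sh133 and 0.51 to 0.71 in scr. From 1 h to 22 h the brightest probe set gained 1.72 in sh14, 0.53 in sh133 and 0.88 in scr. The same change was 1.45, -0.04 and 0.29 in 1423166_at, and 0.18, 0.03 and 0.18 in 1450884_at. At such low signals the size of a difference is uncertain.

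**Figure D3:**
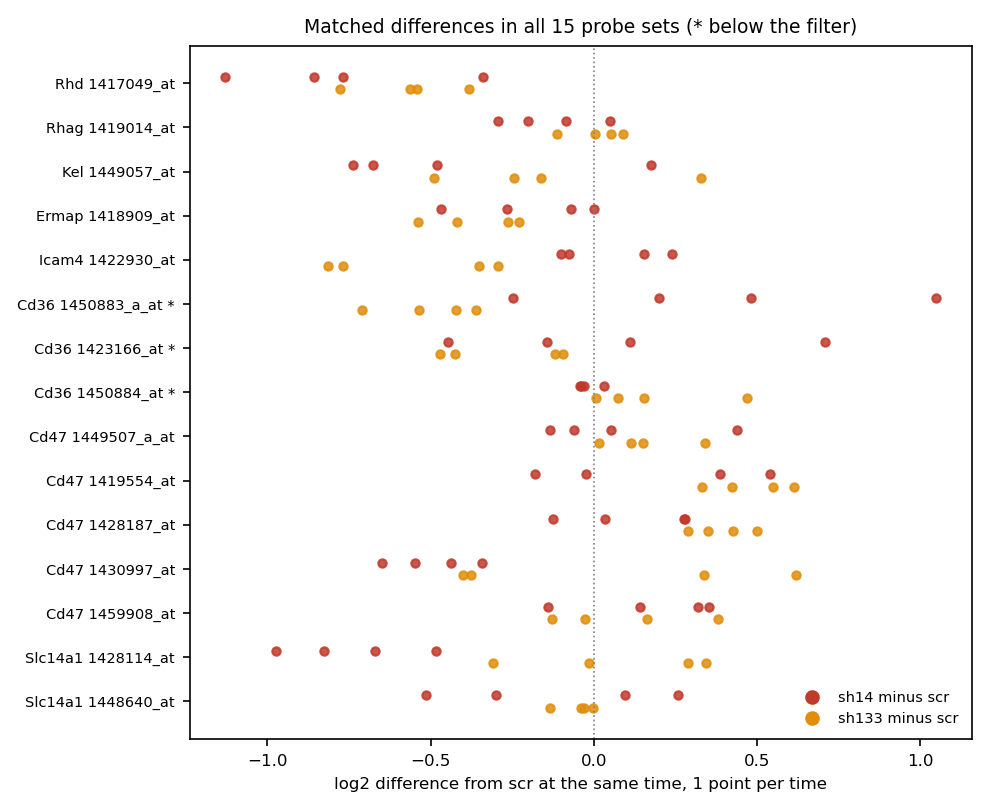
Log2 difference from scr at the same time (horizontal axis) in each of the 15 probe sets of the 8 genes, with 1 point per time for sh14 and for sh133; asterisks mark the 3 Cd36 probe sets below the filter. All 8 points of Rhd are below 0, and the low sh14 points of Slc14a1 probe set 1428114_at have no match in 1448640_at.

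Over the 12 arrays Rhd and Kel followed each other most closely among the members, with a Pearson correlation of 0.93, and Rhd and Ermap (0.84) and Icam4 and Ermap (0.80) came next. Cd47 correlated with the other 6 tested members between -0.09 and 0.27. These arrays share 3 lines and 4 times, so a correlation describes the common course and carries no test. Among all tested genes, those most like Rhd were Ptger3 (0.97), a prostaglandin E receptor gene, Mgst3 (0.97), a microsomal glutathione transferase gene, and Slc25a37 (0.97), the mitochondrial iron importer gene. Ppox, an enzyme gene of heme synthesis, was most like Kel (0.98), ahead of St3gal2 (0.96) and Clcn3 (0.96). Ermap was matched by Ank1 (0.91), the erythroid ankyrin gene, Gab1 (0.91) and Tnfaip2 (0.90). The closest to Icam4 were Zfp36l1, Commd3 and Tmx1 (0.96 to 0.95), to Slc14a1 Snx9, Mpc1 and Pdhb (0.96 to 0.95), to Rhag Becn1, Kalrn and Spopl (0.93 to 0.90), and to Cd47 Ppm1b, Cenpp and Gch1 (0.90 to 0.86).

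Promoter sequences of 7 members were read from the RefSeq table of build GRCm38.p6. Slc14a1 was left out of this step, so its promoter was not examined. The last 100 bases before the annotated start are shown for 6 of the 7. They set the promoters of members that gained signal together beside those of Rhag, which was level, and Cd47, which was level in its brightest probe set. Capitals mark GATAA, the core letters read by GATA factors, or its reverse complement TTATC, and in Icam4 also the CCNCNCCC letters read by Klf1, here on the opposite strand (GGGCGTGG). Each is written 5′ to 3′ on the strand of its gene.
Rhd, chr4:134864436-134864535, plus strand: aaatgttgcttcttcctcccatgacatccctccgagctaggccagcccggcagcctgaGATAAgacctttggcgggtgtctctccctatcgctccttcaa
Kel, chr6:41704326-41704425, minus strand: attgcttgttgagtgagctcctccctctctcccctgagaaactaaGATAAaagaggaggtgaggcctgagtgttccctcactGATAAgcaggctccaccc
Icam4, chr9:21029332-21029431, plus strand: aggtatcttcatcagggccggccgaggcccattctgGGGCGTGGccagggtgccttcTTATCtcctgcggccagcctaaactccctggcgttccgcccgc
Ermap, chr4:119189996-119190095, minus strand: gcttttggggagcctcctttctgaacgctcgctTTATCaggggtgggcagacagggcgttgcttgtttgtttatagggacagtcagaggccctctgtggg
Rhag, chr17:40811049-40811148, plus strand: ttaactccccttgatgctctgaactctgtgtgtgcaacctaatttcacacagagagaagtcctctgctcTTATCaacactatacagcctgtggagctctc
Cd47, chr16:49855554-49855653, plus strand: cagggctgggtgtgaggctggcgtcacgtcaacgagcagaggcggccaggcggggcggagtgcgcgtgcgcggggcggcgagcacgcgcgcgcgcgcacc

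GATAA began 42 bases before the start in Rhd, 55 and 18 bases before it in Kel, and, on the opposite strand, 43 bases before it in Icam4, 67 in Ermap and 31 in Rhag. All 5 of these genes thus hold the letters within 100 bases of the start, and neither Cd47 nor Cd36 holds them within 250. Of 32851 mouse promoters read from the table, 8.55% hold GATAA on either strand in the last 100 bases and 22.6% in 250 bases. The narrower window was taken after the positions were seen, so the share is a description with no test. Rhag holds the letters and was level with time. Cd36 lacks them within 250 bases and was higher at 22 h than at 1 h in the fit with no filter, at signals near background and by its brightest probe set. Cd47 also lacks them, and some of its dimmer probe sets passed with time when they stood for the gene. Within this list the letters and the gain with time thus do not coincide in every gene. The CCNCNCCC letters, held by 45.9% of promoters in 250 bases, were found in Icam4 only, 112 and 64 bases before its start. CANNTG (66.2% of promoters) lay farther upstream in Kel, Icam4 and Cd36, and TTCNNNGAA (7.02%), the letters read by Stat5, in none of the 7.

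Regulators known to read such letters gained signal over the same hours, and whether they act on the members was not tested. Klf1 read 8.26 to 9.58 in sh14, 8.78 to 9.80 in sh133 and 8.74 to 10.15 in scr and was 2.38-fold higher at 22 h than at 1 h (1.25 ± 0.10, limma adjusted p = 3.79e-05), Gata1 was 1.67-fold higher (0.74 ± 0.10, adjusted p = 0.000902) and Tal1 1.74-fold (0.80 ± 0.10, adjusted p = 0.000581). In all 10 of 11 erythroid regulators passed, 8 higher, and Stat5a and Stat5b lower, where 18.1% of all genes passed. Against scr 0 of 11 passed by limma for both hairpin lines, where 2.18% of all genes did, and 1 of the 11 was under an unadjusted p of 0.05. Klf1 was at -0.27 (limma adjusted p = 0.401), Tal1 at -0.34 (0.286), Gata1 at -0.11 (0.805) and Epor at -0.13 (0.777).

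Other blood group carrier genes and the ankyrin complex gave a setting for the members. Of 26 further carrier genes 25 were tested, and 14 passed between 22 h and 1 h, where 18.1% of all genes did. The gains numbered 11 and the losses 3. They were led by the water channel Aqp1 (2.01), the anion exchanger Slc4a1 (1.96), the prion protein gene Prnp (1.93) and glycophorin C, Gypc (1.35), so that Rhd, at 1.97, ranked with the largest gains among them. Aqp1 read 1.34, 1.90 and 1.87 at 1 h in sh14, sh133 and scr, near background, so the size of its gain is uncertain. Those lower were Cd59a (-0.78), Abcc4 (-0.52) and Cd151 (-0.40). Against scr 0 of 25 passed by limma for both hairpin lines and for sh133, with 4 and 5 of them under an unadjusted p of 0.05, and for sh14 Slc4a1 alone did (-1.60 ± 0.37, limma adjusted p = 0.047). Between sh14 and sh133 7 of 25 passed, where 14.6% of all genes did. Of these 4 were higher and 3 lower in sh14, among them Cd55 (1.08) and Slc4a1 (-1.55).

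**Figure D4:**
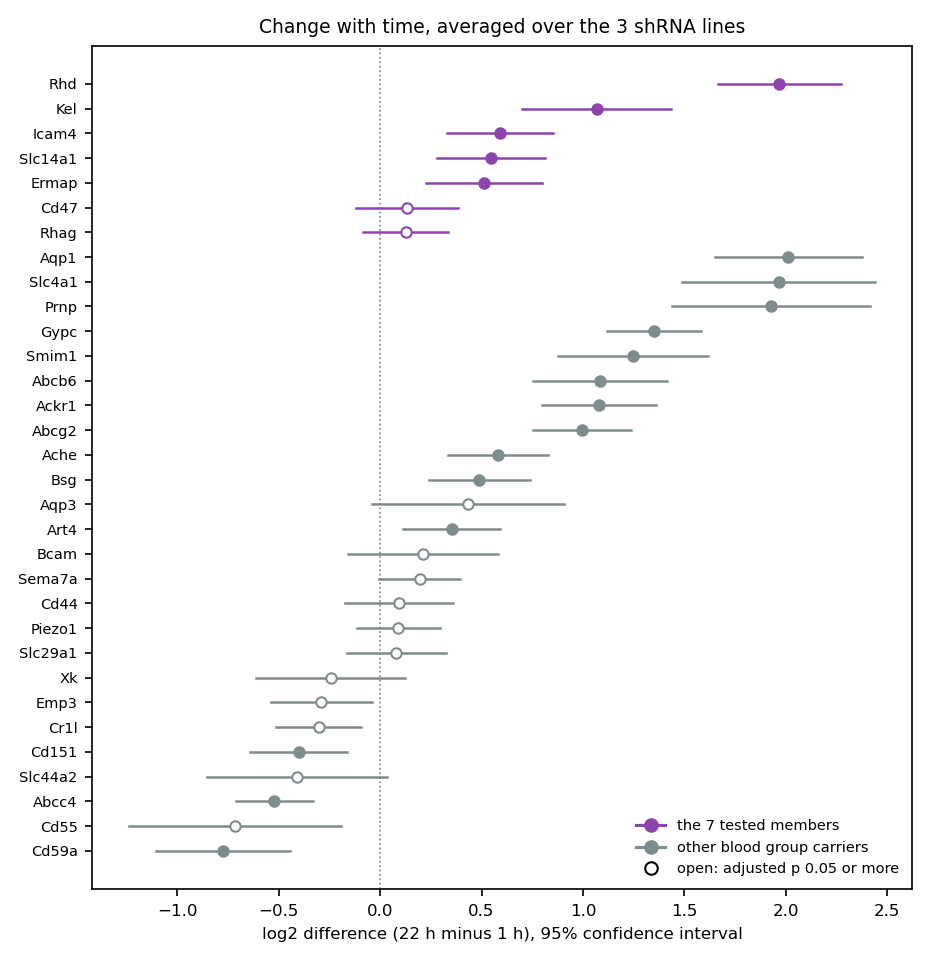
Log2 difference between 22 h and 1 h over the 3 lines (horizontal axis) for the 7 tested members (purple) and 25 other blood group carrier genes (grey), with 95% confidence intervals from limma; open points have an adjusted p of 0.05 or more. Rhd sits with Aqp1, Slc4a1 and Prnp near 2, though Aqp1 started near background. Rhag and the brightest probe set of Cd47 sit near 0.

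The Rh complex is held to the skeleton through Slc4a1, protein 4.2 (Epb42) and ankyrin. All 9 tested genes of this list of 12 passed between 22 h and 1 h, where 18.1% of all genes did. Of the 9, 8 were higher, led by Dmtn (2.12), Epb42 (2.05), Slc4a1 (1.96) and Gypc (1.35), and Add2 was lower (-0.48). Rhag, and Cd47 by its brightest probe set, are the members of the complex that did not pass. Epb42 was also the gene of the list that passed against scr for both hairpin lines (-0.86 ± 0.16, limma adjusted p = 0.0242), where 2.18% of all genes passed. Its fitted differences were -1.09 for sh14 and -0.63 for sh133, near those fitted for Rhd. These values rest in part on the modelled date string term. Averaged over 4 arrays, Epb42 read 4.34 in sh14, 4.46 in sh133 and 4.76 in scr. Its means lay closer together than those of Rhd, at 7.09, 7.30 and 7.86. The non-erythroid relatives Rhbg, Rhcg and Slc14a2 read 1.41 to 2.64 in sh14, 1.27 to 2.91 in sh133 and 1.36 to 2.52 in scr, and 0 of 3 passed in any comparison by limma, Rhcg alone reaching an unadjusted p under 0.05, between 22 h and 1 h. Of 8 glycosyltransferase genes that build carbohydrate blood groups, 6 lay below the filter and the other two did not pass in any comparison (1 under an unadjusted p of 0.05, for the slope). Among 8 tested ligands and partners of Cd36 and Cd47, the Src family kinase gene Fyn was 2.35-fold higher in the hairpin lines than in scr (1.23 ± 0.17, limma adjusted p = 0.00737), and the ligand gene Thbs1 passed between 22 h and 1 h (1.35, adjusted p = 0.0139) and between sh14 and sh133 (-1.36, adjusted p = 0.0294). Thbs1 read 2.71 at 22 h and 1.04 at 1 h in sh14, 3.29 and 1.01 in sh133, and 1.61 and 1.5 in scr, with all 1 h values near background, so these sizes are uncertain. Sirpa, the Cd47 receptor, passed in none of the line comparisons.

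Markers of other cell types moved in the same arrays. All 5 tested erythroid markers were higher at 22 h, where 18.1% of all genes passed in either direction. The adult globin gene Hba-a1 was below the filter in all lines. In sh14, where Slc14a1 was lower, 2 of the 5 were also lower than in scr: Alas2, the enzyme gene that opens heme synthesis (-1.83, limma adjusted p = 0.0144), and Slc4a1. Both fitted differences exceeded every gap between arrays of the same hour. Of all genes, 3.06% passed between sh14 and scr. Between the hairpin lines Alas2 was again lower in sh14 (-2.49, limma adjusted p = 8.04e-05). The summed linear signal of the erythroid list was 1200 to 2280 in sh14, 1490 to 3050 in sh133 and 1360 to 3690 in scr. Tfrc was its brightest gene in every array, with Klf1 next, so the sum mostly follows these genes. Of 7 mast cell and basophil markers, 6 were tested and 3 were lower at 22 h (Hdc at -3.29, Ms4a2 at -1.30 and Cpa3 at -1.06) and Cma1 was higher (0.39), beside the same 18.1% of all genes. The mast cell and basophil list had a summed linear signal of 93.7 to 365 in sh14, 49.7 to 490 in sh133 and 80.6 to 731 in scr, and Mcpt8 was near background. Hdc was the brightest gene of this list in every array and made up most of the sum. It read 5.73 to 8.31 in sh14, 5.10 to 8.88 in sh133 and 5.97 to 9.47 in scr. Fcer1a read 3.58 to 4.55 in sh14, against 0.85 to 1.38 in sh133 and 0.98 to 1.54 in scr, near background in sh133 and scr, so that it passed the filter through sh14 and the size of its difference is not measured. Ms4a2 was also higher in sh14 than in scr (1.36), and in sh133 it was at -0.51 without passing (limma adjusted p = 0.108). Cma1 went the other way. It was lower than scr in sh133 (-0.63, limma adjusted p = 0.0231) and at -0.49 in sh14 (limma adjusted p = 0.242). Its signals were low, 1.28 to 1.56 in sh133 and 1.73 to 2.36 in scr. Hdc was at -0.01 in sh14 and -0.73 in sh133 against scr, neither past the threshold. Megakaryocyte and platelet markers summed to 198 to 282 in sh14, 119 to 291 in sh133 and 68.7 to 114 in scr, with Itga2b higher in sh14 (1.85) and Pf4 in sh133 (2.21), and Ppbp below the filter. Macrophage and monocyte markers summed to 26.4 to 29.8 in sh14, 23.9 to 28.4 in sh133 and 23.3 to 26.6 in scr, with Cd68, Adgre1 and Itgam below the filter. The part of these cell programmes in the differences of Rhd, Slc14a1 and Icam4 was not tested.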

How the data were processed

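The authors deposited log2 probe set signals of 12 arrays, and the submitters' processing notes name RMA with no version. That method subtracts background, gives all arrays the same distribution and summarises the probes of a set, so differences in total RNA between arrays cannot be read. RNA was amplified before labelling, per the labels' protocols. Gene names came from the platform annotation, with 34958 of 45101 annotated to 1 gene, 932 to several and 9211 to none, and only the first were used. Symbols were updated by Entrez identifier through the RefSeq gene table (34754 matched). The brightest probe set stood for each of 18194 genes, and genes with a mean under log2 1.45, the 40th percentile over probe sets, were dropped, leaving 12673. Differences were fitted with limma 3.58.1 in R 4.3.3 with terms for line, time and date string set (5 residual degrees of freedom, 4 for the slope on log2 hours), moderated variances and Benjamini-Hochberg adjustment over all tested genes at 0.05. A Pearson correlation over 12 arrays chose the 3 genes most like each member. The other named genes are the members, Plcg1, Gata1, Klf1, Tal1 and Epor, and up to 4 of largest difference past the threshold from each gene list. Xk, Sirpa, the Rh and urea transporter relatives, Stat5a, Stat5b and marker genes at background were named beside these for their roles, and the few lower or exceptional genes of a list after their values were seen. The members, lists and motifs were chosen with earlier results of these data known. No 2 arrays held identical values. Precision is limited by the number of arrays. The pipeline was tested on simulated data. Figures were drawn with Python 3.11.15 and matplotlib 3.10.9.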

Additional observations from a re-analysis of the deposited data

Results flagged for a closer look

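Among the members, sh14 and sh133 differed from each other past the threshold in 2 genes when the difference between the hairpin lines was itself tested. Icam4 was higher in sh14 than in sh133 by 0.5982 log2 (limma adjusted p = 0.015), and all 4 matched arrays had that direction. Slc14a1 was lower in sh14 than in sh133, at -0.9737 log2 (limma adjusted p = 0.00146), also at 4 of 4 times in probe set 1428114_at, and at 2 of 4 times in its other probe set.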

How the results depend on the processing

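Settings tried were no date string term, that term as a random block, no filter, the mean over probe sets, a stricter filter (60th percentile), each other probe set, renewed quantile normalization, trended robust variances, single date string sets and each array left out. The count of members past the threshold for both hairpin lines against scr was 1, and 2 with no date string term and with the random block; for sh14 it was 1, against 3, 3, 2 (60th percentile) and 2 (robust variances); for sh133 it was 2, against 0 in the second set alone; and for 6 h it was 0, against 2, 2 and 1 (robust variances). Over all genes the counts with no date string term and with the random block were 2049 and 2088 for both hairpin lines (276 with the term), 3003 and 3047 for sh14 (388), 1592 and 1606 for sh133 (622, and 254 in the second set alone), 3132 and 3139 for sh14 against sh133 (1856) and 946 and 948 for 6 h (616). For the slope they were 4, against 1 at the 60th percentile, 0 for probe set means, 1 for quantile normalization and 112 for robust variances. Leaving out 1 array moved these background counts to 59 to 384 for both hairpin lines, 87 to 555 for sh14, 135 to 734 for sh133, 390 to 2206 for sh14 against sh133, 1146 to 2273 for 22 h (2291 with all arrays), 221 to 1110 for 12 h (895), 97 to 730 for 6 h and 0 to 361 for the slope, the highest without sh133 at 22 or 1 h.

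Direction turned in small differences. Rhag in sh133 was 0.0085 with the random block and 0.0081 with no date term, and Slc14a1 in sh133 was 0.0777 and 0.0767. By probe set 1459908_at, Cd47 was -0.0023 for both hairpin lines and -0.0118 for sh14. Leaving out 1 array gave 0 to 1 members for both hairpin lines, 0 to 2 for sh14, 0 to 2 for sh133, 1 to 3 for sh14 against sh133, 4 to 5 for 22 h, 1 to 3 for 12 h and 0 to 1 for 6 h. In those fits Cd47 ran from -0.0666 to 0.1644 for both hairpin lines and from -0.2026 to 0.1213 for sh14, Ermap from -0.499 to 0.0103 and Icam4 from -0.1391 to 0.1967 for sh14, and Kel from -0.4514 to 0.0245 and Slc14a1 from -0.2659 to 0.1023 for sh133. The cause of these changes was not tested. The count of members past the threshold between 22 h and 1 h was 5, and 6 with no filter and with the mean over probe sets. Rhd, Kel and Icam4 kept their calls between 22 h and 1 h in every setting run. No paired analysis was possible because the labels give no replicate numbers, and arrays of the same hour were matched by the time term in place of a replicate block.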
